A study of Mus musculus with 8 samples.

Results

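Collagen chains were measured in whole mouse atria after removal of Chd4, the ATPase subunit of the NuRD chromatin remodelling complex. A gene counted as a collagen chain when its symbol was Col, a number, a and a number, and when its reads summed over the 8 libraries reached 80. This gave 39 chains among the 54532 genes of the table. Another 5 collagen symbols fell below that threshold: Col2a1 with 39 reads in all, Col9a1 with 21, Col19a1 with 17, Col6a4 with 8 and Col10a1 with 7. Just inside it were Col17a1 with 187 reads and Col11a1 with 196. The 39 chains comprised 10 fibrillar chains, 8 basement membrane chains, 7 fibril-associated chains (FACIT) and 14 others.

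All animals carried the Chd4flox/flox alleles and were injected on postnatal day 2 with an AAV9 vector that carried the Nppa promoter, which is active in atrial cardiomyocytes. The promoter drove Cre in the KO group (4 libraries) and EGFP in the control group (4 libraries). Both atria were collected, the cell type was labelled as mixed, and RNA was selected by its poly(A) tail. The sources used here do not give age at collection, sex, strain or the number of mice behind a library. P-values therefore reflect the variation among these libraries, which may in part be technical. Cre and EGFP each occurred in 1 group alone, and their effects and that of Chd4 loss cannot be told apart.

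Collagens are extracellular proteins built from chains that wind around each other as homotrimers or heterotrimers, so a given collagen type often needs the products of several genes. Fibrillar collagens form the tensile fibres of the cardiac interstitium and valves. Collagen IV forms the sheet-like network of basement membranes, which surround cardiomyocytes and line vessels, and FACIT collagens sit on the surface of fibrils. In the heart, fibroblasts are the main source of fibrillar collagen, and endothelial and mural cells contribute much of collagen IV.

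Chd4 itself was at 169, 185, 187 and 199.6 CPM (counts per 1e6 reads, TMM-scaled) in KO 1 to 4 and at 278, 297, 284 and 308 CPM in control 1 to 4, and the groups did not overlap. Libraries held 34002292 to 40588007 counted reads. The Y-linked gene Ddx3y was at 0.720 CPM in KO 2 and at 0.858 and 0.706 CPM in controls 1 and 2, but at 105 CPM or above in the other 5 libraries, so the groups differed in the share of libraries with Y-linked expression. Library name prefixes were never shared between the groups, so prefix and group cannot be told apart.

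Markers of several cell types differed between the groups. Fibroblast and mural sums overlapped, and cardiomyocyte, activated fibroblast, endothelial and epicardial sums did not. For comparison with the counts below, 14.8% of all genes tested were called higher by edgeR and 13.1% lower. Summed over 8 cardiomyocyte markers, levels were 40092 to 48622 CPM in KO against 60880 to 68578 CPM in control. Of the 8, 7 were called lower and Pln, a regulator of the calcium pump, higher. Of 10 fibroblast markers, 4 were called higher, 1 lower and 5 in neither direction, and the summed level was 6319 to 7025 CPM in KO against 6502 to 6809 CPM in control. Gsn took most of that sum, with 3694 ± 115 CPM in KO against 4115 ± 195 CPM in control (edgeR adjusted p = 0.0806). The sum thus follows Gsn more than the other markers. The 4 called higher were Tcf21 (1.52-fold), Lamc3 (1.64-fold), Dcn (1.28-fold) and Dpt (1.26-fold), and Pi16 was called lower (1.68-fold). Of 5 markers of activated fibroblasts 2 were called higher and 1 lower, and they summed to 404 to 491 CPM in KO against 241 to 308 CPM in control. Postn took most of that sum, with 347 ± 40.9 CPM in KO against 204 ± 30.1 CPM in control, so the sum follows Postn. Postn (1.71-fold) and Comp (1.85-fold) were called higher and Cilp lower (1.87-fold). Cthrc1 and Fap were not called (edgeR adjusted p = 0.532 and 0.803). Pdgfra, a defining fibroblast receptor, was at 148 ± 18.3 CPM in KO against 134 ± 7.79 CPM in control (SD, n = 4, edgeR adjusted p = 0.233). Endothelial markers summed to 1928 to 2227 CPM in KO against 1696 to 1837 CPM in control (5 of 8 called higher, 1 lower). Mural markers summed to 427 to 551 CPM in KO and to 438 to 528 CPM in control (2 of 7 called higher, 1 lower). Epicardial markers summed to 749 to 914 CPM in KO against 544 to 729 CPM in control (6 of 8 called higher, 0 lower by edgeR). Macrophage markers had 4 of 6 called higher and lymphocyte markers 2 of 5, with summed lymphocyte levels of at most 16.9 CPM. Skeletal muscle markers summed to 667 to 1176 CPM in KO against 1126 to 1203 CPM in control (0 of 6 higher, 1 lower). Cartilage and valve markers summed to 14.94 to 23.95 against 13.75 to 14.88 CPM (2 of 5 tested higher, 1 lower). Schwann cell markers summed to 23.9 to 27.8 against 28.9 to 37.7 CPM (0 of 6 higher, 1 lower). The part of these markers in the collagen results below was not tested. In bulk tissue a changed number of cells of a type cannot be told apart from a changed amount of RNA per cell.

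For 5 of the called chains, a stretch of RefSeq promoter before the start site that no GENCODE exon covered is shown, on GRCm38, 5′ to 3′ on the strand of the gene. They were picked from the 7 called chains with such a stretch, after their values were seen, and those of Col1a2 and Col16a1 are not shown. Col4a4 and Col4a3 stand head to head on chromosome 1, and the 71 bases between their starts (chr1:82586850-82586920, shown on the minus strand) are complete. Col3a1 (chr1:45311418-45311537, plus strand) was the most abundant chain. Col23a1 (chr11:51289800-51289919, plus strand) and Col18a1 (chr10:77166549-77166668, minus strand) were among the chains that rose most, and Col5a3 (chr9:20815068-20815187, minus strand) was the chain that fell. Capitals mark the letters GGGCGG or its reverse CCGCCC, known from Sp1 binding sites, and GGTGTG or its reverse CACACC, the core of T-box sites such as those of TBX5. The letters CCAAT, or ATTGG, were also searched for and are in none of these 5 stretches. Col18a1 has another RefSeq window (chr10:77113656-77113955), which holds none of the letters searched for and is not shown. Which start of Col18a1 these atria used was not measured.
Col4a4: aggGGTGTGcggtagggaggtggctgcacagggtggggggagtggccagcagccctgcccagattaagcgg
Col3a1: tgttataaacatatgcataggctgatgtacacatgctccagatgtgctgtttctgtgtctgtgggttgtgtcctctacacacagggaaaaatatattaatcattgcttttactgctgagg
Col23a1: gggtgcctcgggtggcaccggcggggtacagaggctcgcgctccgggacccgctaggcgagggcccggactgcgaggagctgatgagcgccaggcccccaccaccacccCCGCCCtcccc
Col18a1: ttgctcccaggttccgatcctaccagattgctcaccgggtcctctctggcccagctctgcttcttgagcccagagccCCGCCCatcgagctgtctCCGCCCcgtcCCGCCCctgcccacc
Col5a3: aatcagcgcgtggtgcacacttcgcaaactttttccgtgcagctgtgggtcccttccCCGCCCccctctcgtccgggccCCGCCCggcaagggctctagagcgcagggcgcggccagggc

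The stretches differed in composition, with 40% G and C before Col3a1 and 67.5% to 77.5% in the other 4. RefSeq windows of 300 bases (250 before and 50 after a start) were at hand for 31 of the 39 chains. GGGCGG on either strand was in the windows of 21 of these 31 chains (67.7%) and of 38.2% of all 27025 genes. CCAAT was in 11 (35.5%) against 41.1% of all genes, and GGTGTG in 7 (22.6%) against 21.4%. Of the 6 matched chains that rose, 4 had GGGCGG, 3 had CCAAT and 1, Col4a4, had GGTGTG. Of the other 25 matched chains, 17, 8 and 6 had them. A match describes letters, and binding was not measured.

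In these atria collagen transcripts were led by the fibrillar chains of the interstitium. Per kilobase of transcript, Col3a1 came first in control at 512 ± 36.4 CPM per kb (SD, n = 4), followed by Col1a2 at 192 ± 11.9 and Col1a1 at 135 ± 15.3 CPM per kb. Next came Col15a1 at 105 ± 11.9 and Col4a1 at 103 ± 5.03, which lay within their spread of each other, then Col6a1 at 92.7 ± 0.802 and Col4a2 at 89.0 ± 5.54, which did so too, and Col6a2 at 71.9 ± 3.36 CPM per kb. These levels depend on the length taken for each gene: with the summed exons of all isoforms, Col1a2 would stand at rank 7 in place of rank 2. In KO Col3a1, Col1a2 and Col1a1 held the same first ranks, at 662 ± 73.1, 237 ± 27.5 and 154 ± 26.5 CPM per kb. At the low end Col22a1, Col11a1 and Col17a1 were below 0.1 CPM per kb in control.

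**Figure D1:**
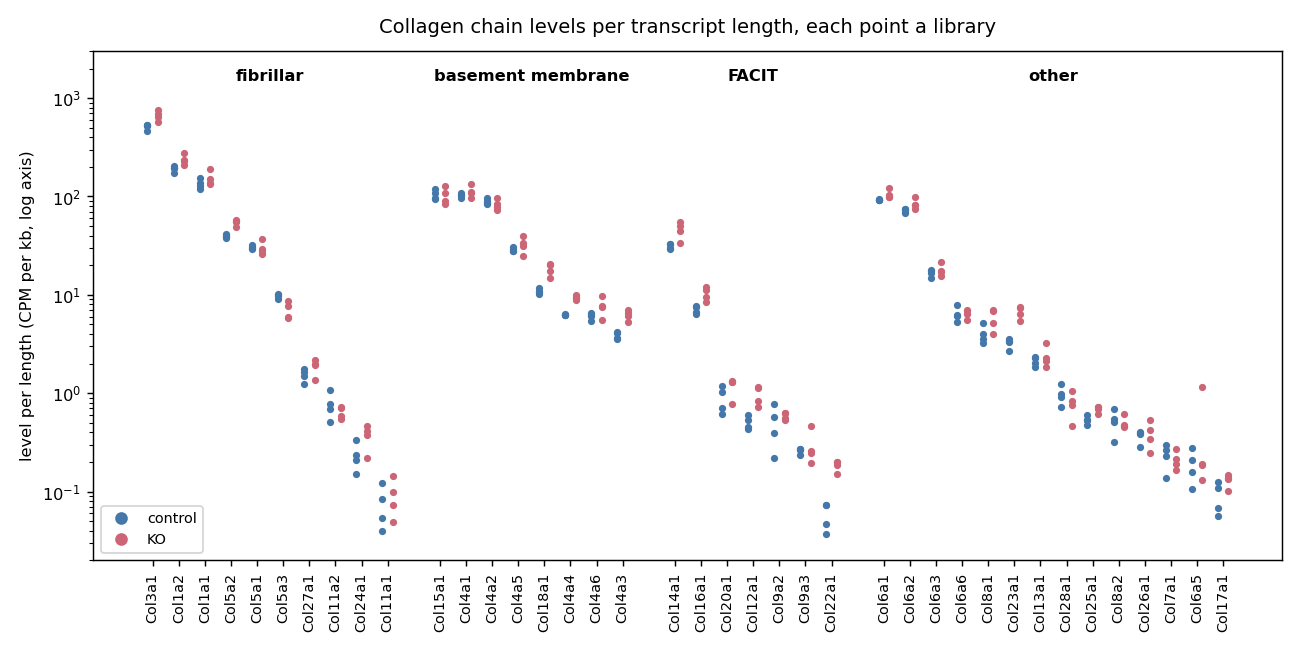
Level of each of the 39 collagen chains per transcript length (CPM per kb, log axis), by class and ordered by the control mean, with each point a library (blue control, red KO, 4 each). Col3a1 lies highest in both groups, and Col6a5 has 1 KO library far above the others.

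Collagen chains as a whole took 0.923% to 1.24% of all counted reads in KO and 0.796% to 0.885% in control. Summed over the 39 chains, the level was 9254, 10117, 10172 and 12119 CPM in KO 1 to 4 and 8889, 8081, 8856 and 9119 CPM in control 1 to 4. KO 1 stood just above the highest control and KO 4 well above the other KO libraries. All 39 chains passed the filter on low counts. Against an adjusted p of 0.05 by edgeR's quasi-likelihood test over 18033 genes, 11 chains rose (28.2%), 1 fell and 27 were not called. Among all genes tested, 14.8% were called higher and 13.1% lower in the same test. The median log2 fold change was 0.28 over the chains and 0.01 over all genes, and 31 of the 39 chains lay above 0. Summed by class, FACIT chains were at 285, 406, 357 and 439 CPM in KO 1 to 4 and at 266, 235, 262 and 238 CPM in control 1 to 4, a ratio of means of 1.48. The ratio was 1.24 for fibrillar chains, 1.16 for the others and 1.06 for basement membrane chains, whose sums alone overlapped between the groups. Without Col1a1, Col1a2 and Col3a1 the ratio over the remaining 36 chains was 1.12, and those sums overlapped. KO libraries lay wholly above controls for 14 chains and wholly below for 1, where the shares over all genes were 15.3% and 13.9%.

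Under other settings the share of all genes called changed along with the number of chains. By limma-voom 15 chains were called higher, where 17.9% of all genes were. Without a filter on low counts 13 chains were called higher and 1 lower (7.95% and 6.54% of all genes), and with a stricter filter 12 of 36 chains were called higher (17.6%). Against controls 1 and 2 alone 9 chains were called higher and 0 lower (9.81% and 8.77%), and against controls 3 and 4 alone 10 and 0 (9.06% and 10.8%). Requiring a fold change above 1.2 left 9 higher and 0 lower (6.6% and 4.75%). Leaving out single libraries left 1 chain called lower each time, where the share of all genes called lower was 14.2% without KO 1, 10.4% without KO 2 or control 1, 10.3% without KO 3 or control 4, 10.2% without KO 4, 13% without control 2 and 11.6% without control 3. The number called higher was 16 without KO 1 (14.6% of all genes), 10 without KO 4 (11.4%) and 11 or 12 without any other one (11.1% to 14.3%).

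**Figure D2:**
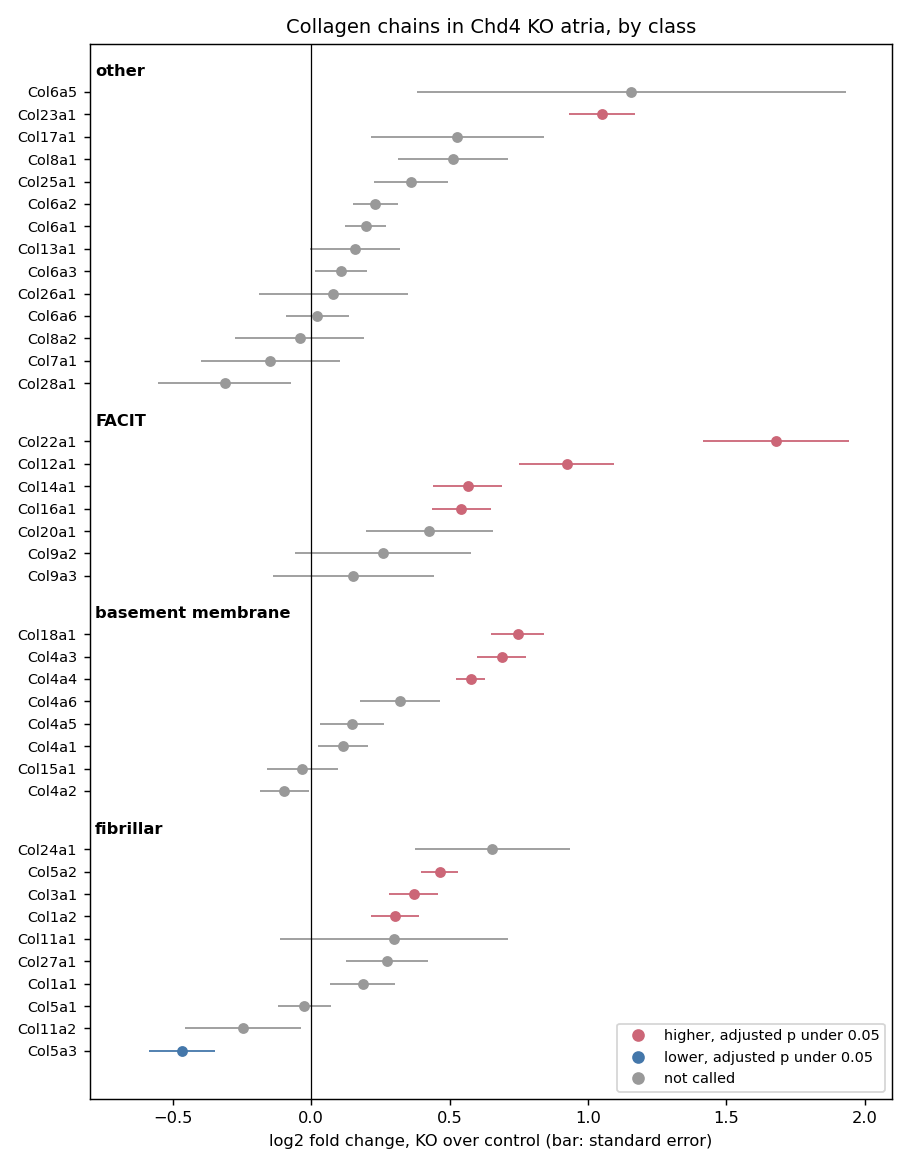
Log2 fold change of KO over control for each collagen chain (points) with its standard error (bars), grouped by class; red marks chains called higher, blue the chain called lower and grey those not called. Col22a1 and Col23a1 lie farthest right among the called chains, and Col5a3 is the only blue point.

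Among the fibrillar chains 3 rose, 1 fell and 6 were not called, with a median log2 fold change of 0.29. Col3a1, the homotrimeric collagen III of elastic interstitium (ENSMUSG00000026043, chromosome 1, 45311538 to 45349706), was at 3212, 3801, 3544 and 4174 CPM in KO 1 to 4 and at 2991, 2551, 2899 and 2958 CPM in control 1 to 4. Every KO library lay above every control, and the level rose 1.29-fold (log2 fold change 0.37, SE 0.09, edgeR adjusted p = 0.00782). Col1a2, the α2 chain of collagen I, was at 1111, 1259, 1238 and 1467 CPM in KO against 1052, 937, 1040 and 1084 CPM in control. It rose 1.23-fold with no overlap between groups (log2 fold change 0.30, SE 0.08, edgeR adjusted p = 0.0197).

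Col1a1, the α1 chain of the same collagen, was at 789.9, 822, 899 and 1138 CPM in KO against 816, 715, 755 and 924 CPM in control. Its groups overlapped and it was not called (log2 fold change 0.19, SE 0.12, edgeR adjusted p = 0.273). The level ratio of Col1a1 to Col1a2 per length was 0.589 to 0.700 in KO and 0.654 to 0.769 in control, so the ranges overlapped. The size of such ratios depends on the length taken for each gene, while the order of libraries within a ratio does not. With the summed exons of all isoforms, a length chosen after seeing the data, the mean control ratio of Col1a1 to Col1a2 would be 1.475 in place of 0.703, so that the more abundant chain of the pair is not settled. The ratio of Col3a1 to Col1a1 was 3.91 to 4.93 in KO and 3.41 to 4.09 in control, where the other length would give a control mean of 2.39 in place of 3.80. Col3a1 kept its call when any single library was left out, and Col1a2 lost it without KO 4 alone (adjusted p = 0.0527). Without KO 2 and control 2 together the log2 fold change of Col3a1 was 0.30 (edgeR adjusted p = 0.0518) and that of Col1a2 0.26 (0.0838). Against controls 3 and 4 alone they were 0.31 (0.0781) and 0.23 (0.161). Col1a2 was at 0.33 (0.0758) against controls 1 and 2 alone. When edgeR required a fold change above 1.2, neither was called (adjusted p = 0.203 for Col3a1 and 0.461 for Col1a2).

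The chains of collagen V, which nucleates fibrils of collagens I and III and limits their width, went apart. Col5a2 (ENSMUSG00000026042), the neighbour of Col3a1 on chromosome 1 at 45374321 to 45503282 on the opposite strand, was at 322, 381, 369 and 374 CPM in KO against 266, 261, 273 and 248 CPM in control. It rose 1.38-fold (log2 fold change 0.46, SE 0.07, edgeR adjusted p = 0.0003) with all KO libraries above all controls. Col5a3 (ENSMUSG00000004098, chromosome 9, 20770050 to 20815067), a chain of a rarer form of collagen V, was at 46.9, 36.4, 36.0 and 53.3 CPM in KO against 59.6, 61.9, 55.3 and 61.6 CPM in control. It fell 1.38-fold with no overlap (log2 fold change -0.47, SE 0.12, edgeR adjusted p = 0.0141), and was the only collagen chain called lower. Col5a1, the chain shared by the common forms, was at 219 to 311 CPM in KO against 243 to 271 CPM in control (log2 fold change -0.02, SE 0.10, edgeR adjusted p = 0.878).

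The level ratio of Col5a1 to Col5a2 per length was 0.574, 0.454, 0.523 and 0.656 in KO 1 to 4 and 0.751, 0.734, 0.751 and 0.859 in control 1 to 4, so each KO library held fewer Col5a1 transcripts per Col5a2 transcript than any control. The ratio of Col5a3 to Col5a2 was 0.103 to 0.158 in KO and 0.219 to 0.269 in control. This pair was not among the ratios planned. With Col5a3 wholly below control and Col5a2 wholly above, its ratio had to separate and adds nothing to their calls. The call of Col5a3 did not hold against controls 1 and 2 alone (adjusted p = 0.0575), controls 3 and 4 alone (0.088) or without KO 2 and control 2 (0.0639). The remaining fibrillar chains were low. Col27a1, a long-chain cartilage and vessel collagen, was at 14.2 ± 2.67 CPM in KO against 11.7 ± 1.71 CPM in control, and Col24a1, Col11a1 and Col11a2 had means below 5 CPM in both groups. Col24a1 had the largest log2 fold change of the class at 0.66, with an SE of 0.28 and an adjusted p of 0.103.

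**Figure D3:**
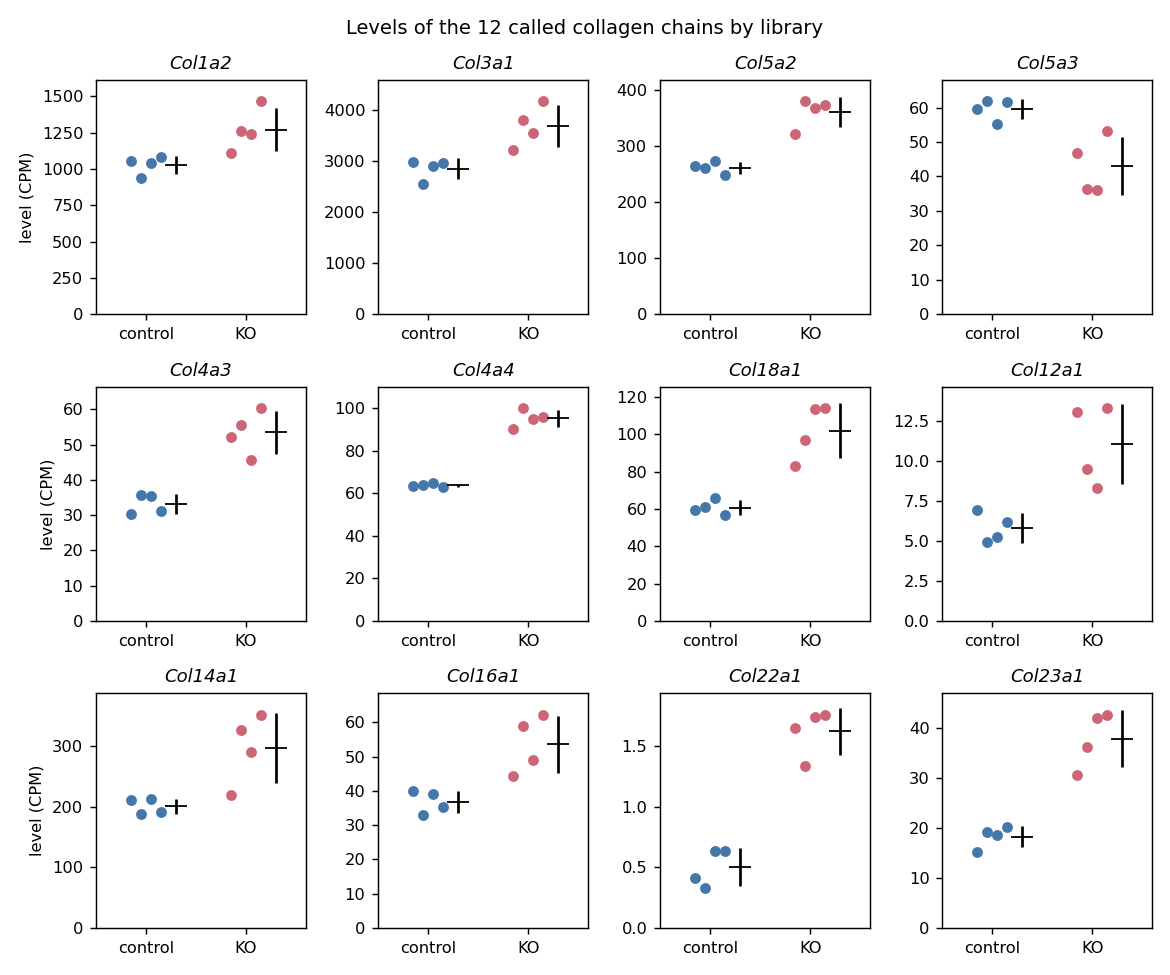
Level (CPM, axis from 0) of the 12 collagen chains called in either direction, with each point a library (blue control, red KO, 4 each) and the mean with its SD in black beside them. KO points lie above all control points in 11 panels and below them for Col5a3.

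Of the basement membrane chains, 3 rose and 5 were not called, with a median log2 fold change of 0.23. The risers were Col4a3, Col4a4 and Col18a1, and the chains not called were Col4a1, Col4a2, Col4a5, Col4a6 and Col15a1. Collagen IV chains are encoded as head-to-head pairs that share a promoter region, and they assemble as α1α1α2, α3α4α5 and α5α5α6 trimers. Col4a4 (ENSMUSG00000067158, chromosome 1, 82448423 to 82586849) was at 90.3, 100.1, 94.7 and 95.6 CPM in KO against 63.6, 63.8, 64.8 and 63.2 CPM in control. The groups were far apart relative to their spread, and the level rose 1.49-fold (log2 fold change 0.58, SE 0.05, edgeR adjusted p = 9.41e-06), the smallest p among the chains. Col4a3, its partner across the 71 bases shown above (ENSMUSG00000079465, chromosome 1, 82586921 to 82722059), was at 52.1, 55.4, 45.7 and 60.4 CPM in KO against 30.3, 35.7, 35.3 and 31.2 CPM in control. It rose 1.61-fold (log2 fold change 0.69, SE 0.09, edgeR adjusted p = 0.000147). Exons of an antisense gene on the opposite strand cover 563 bases of Col4a3, and without a stated strand setting their reads cannot be told apart.

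The other pairs of collagen IV were not called. Col4a1 was at 635 to 877 CPM in KO against 645 to 726 CPM in control (log2 fold change 0.11, SE 0.09, edgeR adjusted p = 0.372). Col4a2 was at 469 to 627 CPM in KO against 538 to 621 CPM in control, a log2 fold change of the other sign (-0.10, SE 0.09, edgeR adjusted p = 0.445). The level ratio of Col4a1 to Col4a2 was 1.28, 1.32, 1.41 and 1.36 in KO 1 to 4 and 1.16 ± 0.0295 in control (SD, n = 4), with no overlap between groups. Their first exons overlap by 22 bases in GENCODE.

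Col4a5, on the X chromosome and a partner of the α3 and α4 chains, was at 161, 219, 206 and 256 CPM in KO against 184, 193, 203 and 182 CPM in control (edgeR adjusted p = 0.381). KO 1 lay below every control and the other KO libraries lay above every control. Col4a6, its head-to-head neighbour, was at 36.7, 49.8, 51.5 and 64.3 CPM in KO against 36.4, 41.8, 43.6 and 40.2 CPM in control (edgeR adjusted p = 0.13). Without KO 1 both were called higher (adjusted p = 0.0267 for Col4a5 and 0.00472 for Col4a6). The level ratio of Col4a5 to Col4a6 was 4.05 to 4.48 in KO and 4.60 to 5.14 in control and did not overlap. That of Col4a3 to Col4a4 was 0.571 to 0.746 in KO and 0.564 to 0.661 in control and did overlap.

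**Figure D4:**
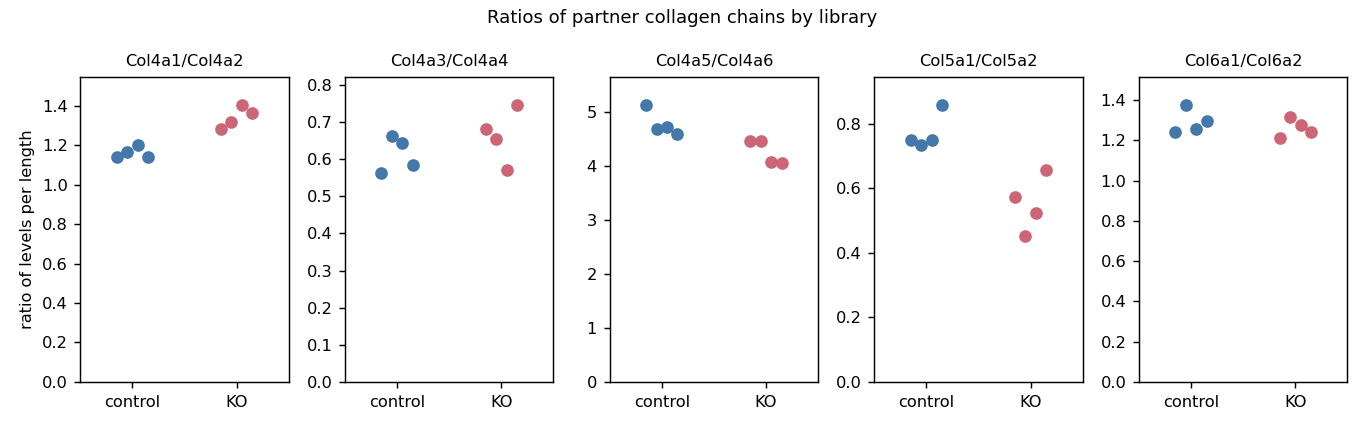
Ratio of levels per transcript length (axis from 0) for 5 pairs of collagen chains, with each point a library (blue control, red KO, 4 each). KO and control points separate for Col4a1/Col4a2, Col4a5/Col4a6 and Col5a1/Col5a2 and overlap for Col4a3/Col4a4 and Col6a1/Col6a2.

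Among the multiplexins, which carry sugar chains and link basement membranes to the matrix, Col18a1 rose and Col15a1 was not called. Col18a1, the precursor of endostatin (ENSMUSG00000001435, chromosome 10, 77052178 to 77166548), was at 83.1, 97.2, 114 and 114 CPM in KO against 59.3, 61.1, 66.1 and 56.8 CPM in control. It rose 1.68-fold (log2 fold change 0.75, SE 0.10, edgeR adjusted p = 0.00019), and its lowest KO library lay above its highest control. Col15a1 was at 532 ± 102 CPM in KO against 543 ± 61.3 CPM in control (log2 fold change -0.03, SE 0.13, edgeR adjusted p = 0.884).

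All 7 FACIT chains had log2 fold changes above 0 (median 0.54), and 4 of them were called higher. Beside the 14.8% called higher among all genes this was 57.1% of a class of 7. Col14a1, known as undulin, which binds fibrils of collagen I (ENSMUSG00000022371, chromosome 15, 55307750 to 55520803), was the class's main chain. It was at 219, 327, 289.5 and 352 CPM in KO against 211, 188, 212 and 191 CPM in control, so that KO 1 lay close to the controls. It rose 1.48-fold (log2 fold change 0.57, SE 0.13, edgeR adjusted p = 0.0076). This call did not hold against controls 1 and 2 alone (log2 fold change 0.55, edgeR adjusted p = 0.0696) or controls 3 and 4 alone (0.54, 0.0719). Nor did it hold without KO 2 and control 2 (0.49, 0.0606), all of them fits with fewer libraries.

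Col16a1, a FACIT chain of fibrillin- and fibril-rich matrix (ENSMUSG00000040690, chromosome 4, 130047840 to 130099283), was at 44.3, 58.8, 48.9 and 62.2 CPM in KO against 39.9, 33.0, 39.1 and 35.2 CPM in control. It rose 1.46-fold (log2 fold change 0.54, SE 0.11, edgeR adjusted p = 0.00326). Col12a1, a FACIT chain of tissues under mechanical load (ENSMUSG00000032332, chromosome 9, 79598991 to 79718831), was at 13.1, 9.50, 8.34 and 13.3 CPM in KO against 6.97, 4.94, 5.23 and 6.19 CPM in control. It rose 1.90-fold (log2 fold change 0.92, SE 0.17, edgeR adjusted p = 0.00189), and all KO libraries lay above the controls, KO 3 by the least.

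Col22a1, a chain known from the junction of muscle and tendon (ENSMUSG00000079022, chromosome 15, 71795795 to 72034227), had the largest fold change of all 39 chains at a very low level. Its libraries held 56, 54, 64 and 65 reads in KO and 16, 13, 25 and 25 reads in control. This gave 1.62 ± 0.195 CPM in KO against 0.505 ± 0.157 CPM in control (SD, n = 4), a 3.20-fold rise (log2 fold change 1.68, SE 0.26, edgeR adjusted p = 0.00062). Col20a1, Col9a2 and Col9a3, the last 2 from the cartilage collagen IX, had means of at most 5.93 CPM and adjusted p-values of 0.194 to 0.738. Exons of Tcfl5 on the opposite strand cover 234 bases of Col9a3.

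Of the 14 other chains, 1 rose and 13 were not called, with a median log2 fold change of 0.18. The riser was Col23a1, a transmembrane collagen (ENSMUSG00000063564, chromosome 11, 51289920 to 51583918). It was at 30.5, 36.2, 42.0 and 42.6 CPM in KO against 15.1, 19.1, 18.6 and 20.2 CPM in control. All KO libraries lay well above all controls, and the level rose 2.07-fold (log2 fold change 1.05, SE 0.12, edgeR adjusted p = 7.14e-05). Of the other transmembrane chains, Col25a1 was at 4.10 to 4.85 CPM in KO against 3.19 to 4.01 CPM in control, without overlap and without a call (edgeR adjusted p = 0.0649). Col13a1 and Col17a1 had adjusted p-values of 0.507 and 0.235.

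None of the 5 measured chains of collagen VI, which forms beaded microfilaments around cells, was called by edgeR. DESeq2 called 2 of them higher, Col6a1 and Col6a2 (adjusted p = 0.0453 and 0.038), where it called 16% of all genes higher. Col6a1, the most abundant chain of this group, was at 406, 405, 427 and 504 CPM in KO against 376, 379, 384 and 381 CPM in control (log2 fold change 0.20, SE 0.07, edgeR adjusted p = 0.0644). Col6a2 was at 402, 369, 401 and 487 CPM in KO against 364, 330.2, 367 and 353 CPM in control (log2 fold change 0.23, SE 0.08, edgeR adjusted p = 0.0533). Both lay wholly above control, and their ratio was 1.21 to 1.31 in KO and 1.24 to 1.38 in control (control mean 1.29, or 2.05 with the summed exons). Col6a3, the long chain that completes the trimer, was at 181 ± 25.2 CPM in KO against 168 ± 13.9 CPM in control (edgeR adjusted p = 0.433). Col6a6 was at 56.8 ± 5.44 and 55.9 ± 9.51 CPM (edgeR adjusted p = 0.908).

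Col6a5 was at 1.74, 1.76, 1.23 and 10.8 CPM in KO 1 to 4 and at 1.46, 0.983, 1.94 and 2.60 CPM in control 1 to 4, so that KO 4 alone was high. Its log2 fold change of 1.16 had an SE of 0.77 and was -0.15 without KO 4. In the same library summed adipocyte markers stood at 53.2 CPM, with at most 2.45 CPM in the other 7. Col8a1, a network collagen of vessels and valves, was at 34.6, 26.4, 20.5 and 35.4 CPM in KO against 20.6, 16.6, 26.4 and 18.2 CPM in control (log2 fold change 0.51, SE 0.20, edgeR adjusted p = 0.0878). Its groups overlapped through KO 3 and control 3, and it was called without either of them (adjusted p = 0.0203 and 0.0353). Its partner Col8a2, the anchoring fibril chain Col7a1, and Col26a1 and Col28a1 had means of at most 4.10 CPM and adjusted p-values of 0.364 to 0.92.

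Calls were also counted by collagen type. The 39 chains belonged to 24 types, of which 7 had several measured chains. In 3 of these 7 some chains were called, and in 0 of them every chain was called in 1 direction by edgeR. Collagens VI, VIII, IX and XI had no called chain, and in collagen IV Col4a3 and Col4a4 were called together. A called chain beside an uncalled one does not show that they differ. Of the 17 types with a single measured chain, 7 were called higher, where 28.2% of all chains and 14.8% of all genes were. Whether the fold changes of partner chains differ was not tested beyond the ratios given above.

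The genes that modify, secrete, cross-link, bind and degrade collagen are known to set how much mature collagen a tissue holds. Among 19 genes of collagen biosynthesis in the endoplasmic reticulum, 5 were called higher, 3 lower and 11 in neither direction (median log2 fold change -0.04). The 5 were 26.3% of the list, beside 14.8% called higher and 13.1% called lower over all genes. The risers included P3h3, a collagen prolyl 3-hydroxylase family member (from 35.5 ± 1.31 to 46.4 ± 1.56 CPM, edgeR adjusted p = 0.000328), the lysyl hydroxylase Plod1 (adjusted p = 0.008), P3h2 (0.0132) and the prolyl 4-hydroxylase subunit P4ha1 (0.0187). The genes called lower were Crtap, P3h1 and P3h4, of which Crtap and P3h1 form the prolyl 3-hydroxylation complex. Crtap fell from 49.3 ± 4.86 to 40.1 ± 1.55 CPM (edgeR adjusted p = 0.00918), P3h1 had an adjusted p of 0.0207 and P3h4 one of 0.045. The collagen chaperone Serpinh1 was at 654 ± 76.6 CPM in KO against 645 ± 46.4 CPM in control (edgeR adjusted p = 0.883). When single libraries were left out, the number called lower ranged from 1 to 4 (10.2% to 14.2% of all genes). The number called higher then ranged from 3 to 5 (11.1% to 14.6% of all genes). It was 1 lower without any one of KO 2, KO 3, control 3 or control 4 (10.3% to 11.6% of all genes). It was 3 higher without KO 4 (11.4%) or control 1 (11.6%).

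Of 12 tested genes that trim procollagen and cross-link fibrils, 6 were called higher, 1 lower and 5 in neither direction (median log2 fold change 0.25). The share called higher was 50%, where all genes had 14.8% higher and 13.1% lower. The number called higher was 3 against controls 3 and 4 alone (9.06% of all genes) and 2 with the minimum fold change (6.6%). Tll1, a tolloid-type procollagen protease, rose from 10.2 ± 1.64 to 16.2 ± 1.29 CPM (edgeR adjusted p = 0.00137). Adamts2, which removes the amino-terminal propeptide, rose from 171 ± 11.7 to 218 ± 12.6 CPM (edgeR adjusted p = 0.00219). Lox, the lysyl oxidase that starts cross-links, rose from 30.3 ± 2.46 to 45.0 ± 7.48 CPM (edgeR adjusted p = 0.00347), and Loxl3 had an adjusted p of 0.0117. Adamts3, another amino-propeptidase, fell 1.85-fold from 18.7 ± 0.843 to 10.1 ± 0.488 CPM (edgeR adjusted p = 8.47e-06). Its KO libraries held 9.64 to 10.8 CPM and its controls 17.7 to 19.6 CPM.

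Of 8 tested collagen receptors, 1 was called higher and 0 lower by edgeR (median log2 fold change 0.13). The share called higher, 12.5%, was close to the 14.8% of all genes, of which 13.1% were called lower. Itga10, an integrin chain known from cartilage, was at 2.45, 7.77, 8.66 and 7.97 CPM in KO against 1.92 ± 0.705 CPM in control, with KO 1 inside the control range (edgeR adjusted p = 0.00944). Against controls 1 and 2 alone, or 3 and 4 alone, the number of receptors called higher was 0 by edgeR (9.81% and 9.06% of all genes). It was 0 too without the filter on low counts (7.95%), and 2 without KO 1 (14.6%). The number called lower was 1 without KO 4 (10.2% of all genes) and 1 against controls 3 and 4 alone (10.8%). Ddr2, the fibroblast receptor of fibrillar collagen, was at 103 ± 14.9 CPM in KO against 91.6 ± 2.88 CPM in control (edgeR adjusted p = 0.177).

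Among 12 tested genes of collagen turnover, 5 were called higher, 2 lower and 5 in neither direction (median log2 fold change 0.23). The share called higher was 41.7%, where all genes had 14.8% higher and 13.1% lower. Mmp3, stromelysin 1, rose 1.90-fold from 12.3 ± 0.977 to 23.3 ± 1.15 CPM (edgeR adjusted p = 7.74e-06). Ctsk, a collagen-cleaving cathepsin, rose 1.58-fold from 28.3 ± 1.96 to 44.7 ± 1.23 CPM (edgeR adjusted p = 1.75e-05). The metalloproteinase inhibitors Timp1 and Timp3 rose 2.29-fold and 1.49-fold (edgeR adjusted p = 0.00266 and 0.000775). Timp4, an inhibitor known from the heart, fell 4.49-fold from 6.10 ± 1.39 to 1.37 ± 0.672 CPM (edgeR adjusted p = 0.000729), and the membrane metalloproteinase Mmp15 fell 1.56-fold (edgeR adjusted p = 0.000198).

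Of 15 tested partners of collagen IV in the basement membrane, 3 were called higher, 1 lower and 11 in neither direction (median log2 fold change 0.10). The share called higher, 20%, was near the 14.8% of all genes, of which 13.1% were called lower. The number called higher was 5 without KO 1 (14.6% of all genes), 5 by limma-voom (17.9%) and 1 with the minimum fold change (6.6%). The number called lower was 2 without KO 4 (10.2% of all genes). The laminin chain Lamc3 rose 1.64-fold (edgeR adjusted p = 0.0109), and Agrn, the proteoglycan agrin, rose 1.26-fold (0.0193). Lamb3, another laminin chain, fell 1.52-fold from 79.4 ± 6.08 to 52.3 ± 1.78 CPM (edgeR adjusted p = 3.4e-05). The proteoglycan Hspg2 and the linker Nid1 had adjusted p-values of 0.989 and 0.72.

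**Figure D5:**
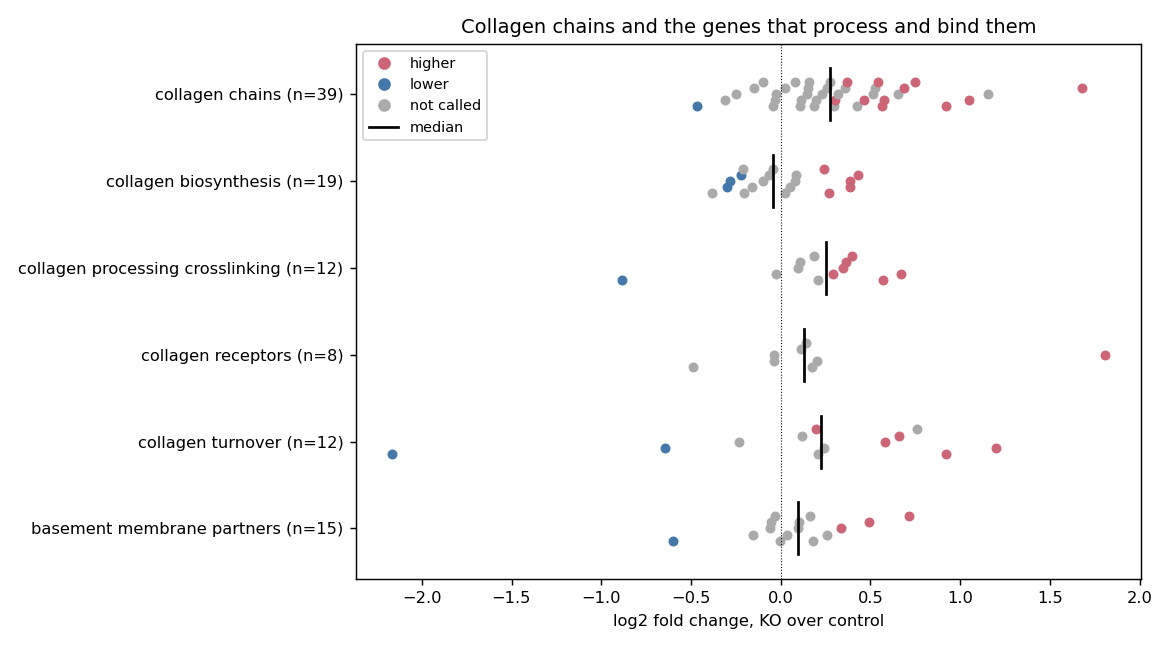
Log2 fold change of KO over control for the 39 collagen chains and for the tested genes of 5 lists around collagen, with each point a gene (red called higher, blue called lower, grey not called) and the median as a black bar. The medians run from -0.04 for biosynthesis to 0.28 for the chains, and Timp4 lies farthest left.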

How the data were processed

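Bulk RNA-seq read counts were analysed for 8 atrial libraries, 4 KO and 4 control, grouped by sample title. The authors' deposited table held whole-number counts per gene, not normalised, and 0 columns were left unmapped. STAR, DESeq2 and mm10 are listed in the submitters' processing notes. Which program counted reads, with what strand option and which gene models, is not given in the sources used here. Collagen chains and gene lists were chosen with earlier results of these data known. Every chain was described, and of each list up to 4 called genes per direction with the smallest p were named, others after their values were seen. A called gene of the basement membrane list is not reported here.

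edgeR 4.0.16 in R 4.3.3 kept 18033 genes (filterByExpr, minimum count 10, minimum total 15), scaled them by TMM and tested KO against control with its quasi-likelihood test (robust, 6 residual degrees of freedom). P-values were adjusted by Benjamini-Hochberg over these genes and called under 0.05. The SE is the log2 coefficient divided by the root of F. CPM are on the TMM scale, where 3 reads equal 0.0744 to 0.0885 CPM, and no chain had under 12 reads in a library. Levels per length used the GENCODE M21 transcript with the longest coding sequence. Summed levels and ratios were not tested. Promoters came from RefSeq on GRCm38.p6, the assembly of mm10.

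The test was also run on counts simulated with the spread fitted to these libraries, which is no independent support for the calls. Alternatives covered RLE and upper-quartile scaling, DESeq2 1.42.0, limma-voom 3.58.1, other filters, a replicate block, left-out libraries, each control pair, Y-linked expression as a covariate and a minimum fold change of 1.2. Between libraries of a group, chi-square over its degrees of freedom was 12.4 to 31.8, so none was a copy of another.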

Additional observations from a re-analysis of the deposited data

Results flagged for a closer look

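Of 78 sets of 4 libraries (39 chains in 2 groups), 5 had a library apart from the other 3 by Dixon's criterion, and chance alone gives about 1 in 20. Col6a5 was at 10.8 CPM in KO 4. Col20a1 was at 3.89 CPM in KO 1, below the other KO libraries, and Col8a2 was at 2.68 CPM in KO 1, above them. Col9a3 was at 0.715 CPM in control 3 and Col26a1 at 0.789 CPM in control 4, both below the other controls. None of these 5 chains was called by edgeR in the comparison of KO with control.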

How the results depend on the processing

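Of the 12 called chains, 8 kept their call and direction under all 20 alternatives: Col5a2, Col4a3, Col4a4, Col18a1, Col12a1, Col16a1, Col22a1 and Col23a1. Col1a2, Col3a1, Col14a1 and Col5a3 lost the call under at least 1, and none of the 12 changed sign. The number called higher was 11, with 10 to 16 when single libraries were left out (11.1% to 14.6% of all genes) and 8 without KO 2 and control 2 (11.1%). The number called lower was 1, but 0 against controls 1 and 2 alone (8.77% of all genes) or controls 3 and 4 alone (10.8%). It was also 0 without KO 2 and control 2 (10.9%) and with the minimum fold change (4.75%). With the replicate block 12 chains were called higher and 1 lower (13.7% and 12.7% of all genes). Correlations of the deviations of same-numbered libraries were -0.0153, 0.303, -0.0563 and 0.105, and not every library correlated best with its own number. Of 19 biosynthesis genes, 1 was called higher and 1 lower against controls 1 and 2 alone (9.81% and 8.77% of all genes). With the minimum fold change edgeR called 0 either way (6.6% and 4.75% of all genes). Of the 27 uncalled chains, 9 were called under at least 1 alternative and 11 changed sign. Calls kept, gained or lost across alternatives were not counted over all genes, so these numbers do not set collagen chains apart. Against controls 1 and 2 alone the log2 fold changes with another sign were 0.0035 for Col5a1, 0.083 for Col15a1, -0.022 for Col9a2, 0.19 for Col8a2 and -0.056 for Col26a1. Against controls 3 and 4 alone they were -0.18 for Col11a1, -0.15 for Col6a6 and 0.17 for Col7a1. Without KO 2 and control 2 they were 0.012 for Col5a1, -0.23 for Col11a1 and -0.053 for Col6a6. With Y-linked expression Col6a6 was at -0.014, and by limma-voom Col9a3 at -0.017. Leaving out single libraries gave log2 ranges of -0.14 to 0.037 for Col5a1, -0.018 to 0.64 for Col11a1, -0.16 to 0.048 for Col15a1, -0.16 to 0.30 for Col9a3, -0.15 to 1.45 for Col6a5, -0.056 to 0.14 for Col6a6, -0.21 to 0.13 for Col8a2, -0.022 to 0.25 for Col13a1 and -0.12 to 0.24 for Col26a1. The cause was not tested. With the summed exons of all isoforms as length, the mean control ratio of Col5a1 to Col5a2 was 1.11 in place of 0.774.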
